A study of Homo sapiens with 12 samples.

Results

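The HOX cluster genes were taken as the rows of the deposited expression table whose gene symbol was HOX followed by A, B, C or D and a number. The members were thus chosen by name, and the family was selected on the measured level of HOXC12, which stood apart in one line. The rule found 39 of 63086 genes, 11 in cluster HOXA, 10 in HOXB, 9 in HOXC and 9 in HOXD, and they were compared across 4 lines of MIA PaCa-2, an established human pancreatic ductal adenocarcinoma cell line. The study asked how loss of TIMP1, which encodes an inhibitor of metalloproteinases, changes the transcriptome, by RNA sequencing of 12 libraries, 3 biological replicates per line. The WT line was not edited. CRISPR Control was edited with CRISPR-Cas9, a nuclease led to its DNA site by a guide RNA, and was left with a silent point mutation that keeps the protein sequence. TIMP1 KO 1 and TIMP1 KO 2 were knockout clones edited in exon 4 of TIMP1. All 4 lines were grown in the same medium. Each edited genotype rests on a single line, so the edit and other differences between lines cannot be told apart, and the p-values below measure only the spread between 3 replicates of the same line.

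HOX genes encode transcription factors that bind DNA through a homeodomain. They lie in clusters in which the order of the genes along the chromosome follows the order of the body regions where they act, from anterior (low numbers) to posterior (high numbers), and genes of the same number in different clusters are paralogues. Once set in the embryo, the on or off state of each gene is held through cell divisions by the Polycomb group (off) and the Trithorax and MLL complexes (on), so adult cells and tumour lines keep a HOX code of their own.

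The values were counts of reads per gene divided by a size factor of the library (normalised counts), and the libraries held from 26908701 to 36093563 reads in genes. TIMP1 itself stood at a mean of 3553 normalised counts in WT, at 75.7% of that in CRISPR Control, at 45.0% in TIMP1 KO 1 and at 32.7% in TIMP1 KO 2. The epithelial markers KRT8, KRT18, KRT19, EPCAM and CDH1, and VIM, were read in all 4 lines. The paper lists VIM among the markers of basal-like cancer cells, which lose epithelial identity. The sum and counts of the 6 thus do not measure epithelial identity. The sum of the 6 ranged from 265785 to 286127 in the WT libraries and 107503 to 135643 in CRISPR Control. It ranged from 308109 to 315239 in TIMP1 KO 1 and 250115 to 270632 in TIMP1 KO 2. In CRISPR Control 4 of the 6 were lower than in WT, as were 26.3% of all genes. CDH1, which was not among these 4, had means of 1189 in WT and 128 and 84.9 in the KO lines. Its change was the largest of the 6 markers between the mean of the KO lines and the mean of WT and CRISPR Control (log2 fold change -3.65 ± 0.10 (SE)). In that contrast 4 of the 6 markers were higher and 2 lower (32.9% and 33% over all genes). Against WT, 2 were higher and 1 lower in TIMP1 KO 1 (18% and 17.5% over all genes). In TIMP1 KO 2, 1 was higher than WT and 4 lower (27.1% and 27.9% over all genes). Acinar, erythroid and endothelial markers summed to at most 19.1 in any line, and leukocyte markers to 8.06 to 114.6, of which CD74 was 109.8 in TIMP1 KO 2. Of the fibroblast markers, COL1A2 fell from a mean of 8217 in WT to 8.56 in CRISPR Control (log2 fold change -9.79 ± 0.31 (SE), adjusted p = 5.93e-15, limma) and was at 0 in every KO library. COL1A1 was read in all lines. It was lower than WT in CRISPR Control (log2 fold change -0.38 ± 0.11 (SE), adjusted p = 0.00832) but was called higher than WT in both KO lines. DCN and LUM did not exceed a mean of 4.12. The part of these markers in the HOX differences was not tested.

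To show the DNA that neighbouring members start from, the 250 bases before a RefSeq start site are printed for a read and a nearly silent gene of each of 2 clusters, from the RefSeq promoter windows of build GRCh38.p14. HOXA13 and HOXD3 were read in all lines, whereas HOXA9 and HOXD10 stayed near 0. Each runs 5′ to 3′ on the gene's own strand, with every CG dinucleotide, the site of DNA methylation in human cells, in capitals.
HOXA13 (chr7:27200092-27200341, minus strand): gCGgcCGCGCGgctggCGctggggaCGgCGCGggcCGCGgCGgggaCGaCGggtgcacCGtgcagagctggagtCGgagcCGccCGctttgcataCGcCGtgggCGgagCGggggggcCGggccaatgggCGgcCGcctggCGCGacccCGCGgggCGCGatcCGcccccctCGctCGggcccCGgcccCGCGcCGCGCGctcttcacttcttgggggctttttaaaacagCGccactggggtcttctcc
HOXA9 (chr7:27165538-27165787, minus strand): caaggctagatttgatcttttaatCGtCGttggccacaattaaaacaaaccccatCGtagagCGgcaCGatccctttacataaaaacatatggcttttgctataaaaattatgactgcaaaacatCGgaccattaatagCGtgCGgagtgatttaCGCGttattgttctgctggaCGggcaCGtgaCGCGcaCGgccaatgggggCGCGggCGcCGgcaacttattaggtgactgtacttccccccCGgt
HOXD3 (chr2:176157057-176157306, plus strand): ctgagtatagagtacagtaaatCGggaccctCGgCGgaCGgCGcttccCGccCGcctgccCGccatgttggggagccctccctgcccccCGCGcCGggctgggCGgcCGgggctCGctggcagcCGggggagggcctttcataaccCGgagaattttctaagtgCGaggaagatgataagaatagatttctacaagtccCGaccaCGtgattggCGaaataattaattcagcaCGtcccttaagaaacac
HOXD10 (chr2:176116528-176116777, plus strand): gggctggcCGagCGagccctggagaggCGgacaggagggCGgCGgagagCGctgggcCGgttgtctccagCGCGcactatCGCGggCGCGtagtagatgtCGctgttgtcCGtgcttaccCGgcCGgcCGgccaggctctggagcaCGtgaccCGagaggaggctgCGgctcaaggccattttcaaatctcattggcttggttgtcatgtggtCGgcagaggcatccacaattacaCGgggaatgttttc
These stretches held 40, 20, 21 and 23 CG dinucleotides in the order printed, so the nearly silent HOXA9 and HOXD10 had about as many as HOXD3. No annotated exon overlapped any of them. The HOXA13 stretch lies just before the GENCODE span of its gene. Those of HOXA9, HOXD3 and HOXD10 lie inside the longer spans that GENCODE gives these genes, ahead of an inner start.

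A window was listed for 20 of the 39 members, as 26 distinct windows of 300 bases that add the first 50 bases of the gene. In HOXB only HOXB1 had a window, and in HOXC only HOXC4 and HOXC5, so HOXC12 had none. HOXA3 had several windows. The values below thus do not describe most genes of HOXB and HOXC. They held 0 to 44 CG dinucleotides with a median of 22.5, against a median of 14 and quartiles of 4 and 28 over all 34943 windows. HOXA13 had the most among the members. Searched on both strands, CCAAT occurred in 17 of the 26 HOX windows and in 34.6% of all windows, and TATAAA in 5 of 26 and 11.6%. TAATTA, a core bound by homeodomains, occurred in 2 windows, those of HOXD3 and HOXD11, and in 4.85% of all. TTTATGG, a core bound by posterior HOX and CDX proteins, occurred in 1 HOX window, that of HOXD8, and in 2.55% of all, and TGACAG, the MEIS core, in 4 HOX windows and 15.8% of all. Matches of different motifs can share end bases, as TAATTA and TATAAA can, and a match is a run of letters, not a binding site. HOXC4 and HOXC5 are listed with the same window.

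MIA PaCa-2 cells carried a HOX code made almost wholly of HOXB and HOXC. The summed normalised count of all 39 members was 30891 ± 348 in WT (SD, n = 3), of which HOXB made up 54.5%, HOXC 41.9%, HOXA 3.30% and HOXD 0.302%. The HOXA and HOXD shares stayed under those of HOXB and HOXC in each of the 12 libraries. All values here are from bulk RNA, in which fewer cells reading a gene and less RNA per cell cannot be told apart.

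**Figure D1:**
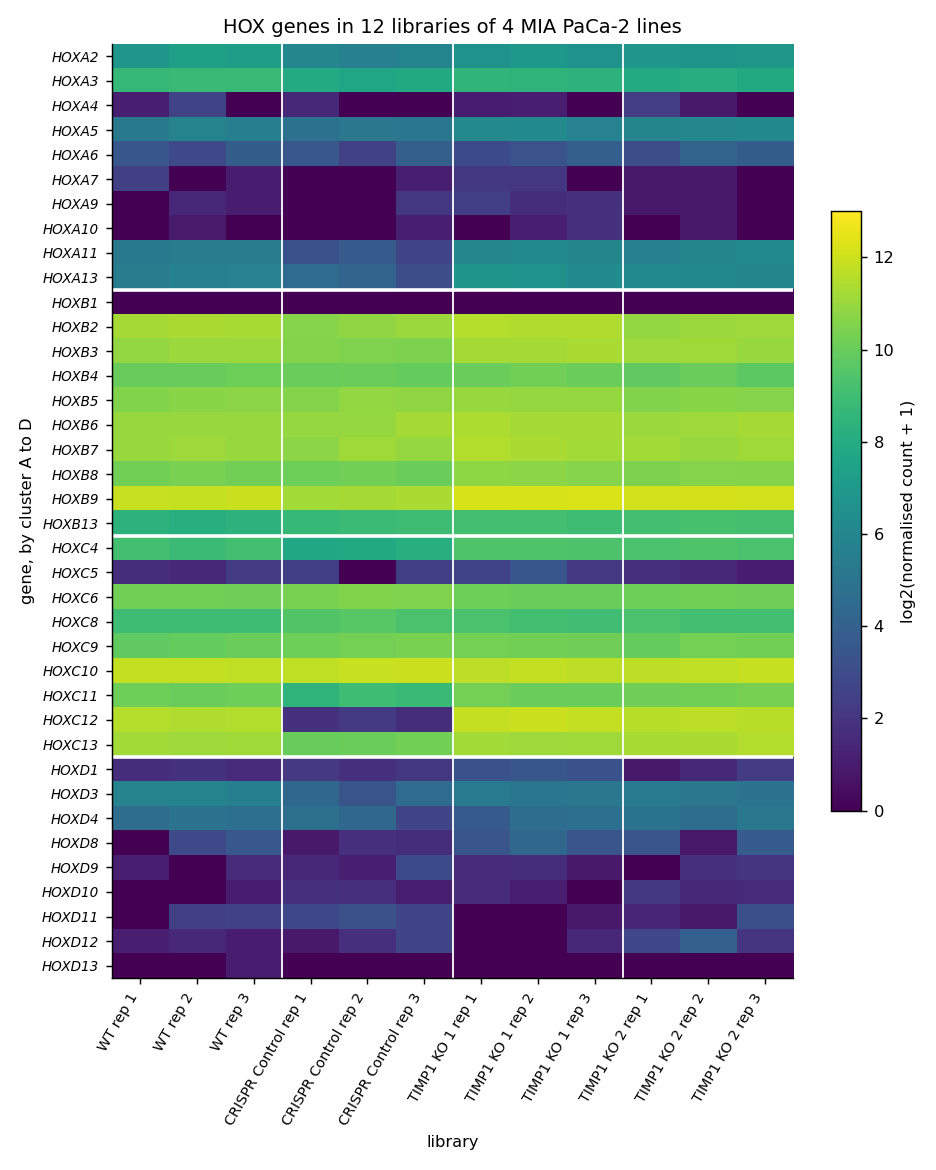
Heat map of log2(normalised count + 1) for 38 of the HOX genes (rows, by cluster A to D) in the 12 libraries (columns, by line). HOXB2 to HOXB9 and HOXC6 to HOXC13 are bright in all lines except for HOXC12, which is dark in the 3 CRISPR Control libraries, and HOXA4, HOXA7, HOXA9, HOXA10 and most of HOXD are dark throughout.

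Compared per kilobase of exon, which allows levels of different genes to be set side by side, the highest WT levels were those of HOXB9 (1497 normalised counts per kb), HOXC10 (1489), HOXB7 (1384), HOXB2 (1024), HOXC13 (960.1) and HOXC12 (887). HOXB9 and HOXC10 belong to the paralogue groups of the trunk to lumbar region, and HOXC11 to HOXC13 to the most posterior ones. Within HOXA the levels rose and fell along the cluster. HOXA2 and HOXA3, genes of the hindbrain and pharyngeal arches, stood at 61.7 and 99.4 per kb in WT. HOXA4, HOXA5 and HOXA6 stood at 1.27, 26.7 and 7.75 and HOXA7, HOXA9 and HOXA10 at 0.758, 0.305 and 0.0817, while HOXA11 and HOXA13, genes of the distal limb and urogenital tract, stood at 15.5 and 9.88. HOXB fell sharply at its anterior end, since HOXB1 had no read in any of the 12 libraries next to HOXB2 among the highest. In HOXC the single gap was HOXC5, at 1.63 per kb between HOXC4 at 185 and HOXC6 at 344. Exons shared with other genes on the same strand made up 67.3% of the HOXC5 exon bases and 31.3% of those of HOXA4. Of the HOXA7 exon bases, 62.5% lie opposite to HOXA-AS3. Such overlap may affect the levels of these genes, which was not tested. In HOXD only HOXD3 and HOXD4 exceeded 10 per kb in WT, at 14.3 and 23.3.

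**Figure D2:**
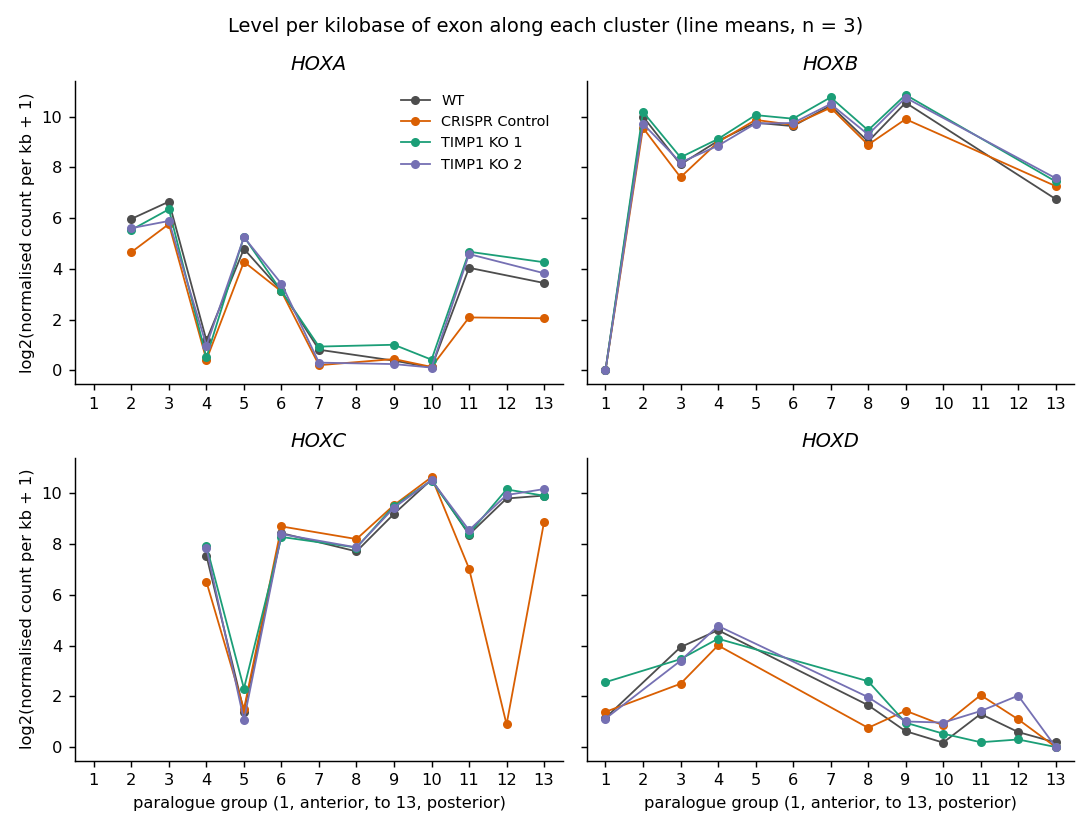
Level of 38 HOX genes as log2(normalised count per kb of exon + 1) against its paralogue group from 1 (anterior) to 13 (posterior), one panel per cluster and one colour per line, with points for the mean of 3 libraries. The 4 profiles run close together along HOXB, while CRISPR Control drops at HOXC11, HOXC12 and HOXC13 and lies under the other lines at HOXA2, HOXA5, HOXA11 and HOXA13.

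A count of 3 reads in a library was taken as the limit that a count of 0 allows (counting error only). Above it in all 3 libraries of the line were 26 members in WT, 26 in CRISPR Control, 29 in TIMP1 KO 1 and 26 in TIMP1 KO 2. At or under it in all 3 libraries were 8, 9, 9 and 7 members. With the limit raised to 10 reads, the members above it numbered 25 in WT and in both KO lines and 20 in CRISPR Control. The 13 members under the filter of 10 normalised counts on average were not tested. Their highest line mean was 13.2, that of HOXD8 in TIMP1 KO 1, and HOXD1 had a mean of 9.20 ± 0.807 in TIMP1 KO 1 (SD, n = 3) against 2.30, 3.04 and 2.21 in WT, CRISPR Control and TIMP1 KO 2. The deposited counts give no strand, and 60.1% of the HOXD1 exon bases lie opposite to exons of the long noncoding RNA HAGLR and of 1 unnamed gene. HOXD12 was read at 5.80, 14.9 and 3.03 normalised counts in the TIMP1 KO 2 libraries and at no more than 5.49 in any other library, and HOXD13 had a read in 1 library, WT replicate 3.

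By cluster, CRISPR Control stood lowest of the 4 lines throughout. The summed level of HOXA was 1018 ± 60.9 in WT, 504 ± 37.5 in CRISPR Control, 985 ± 33.1 in TIMP1 KO 1 and 875 ± 44.2 in TIMP1 KO 2 (SD, n = 3 each), which put CRISPR Control at 49.4% of WT. HOXB was at 84.6% of WT in CRISPR Control, 122.5% in TIMP1 KO 1 and 105% in TIMP1 KO 2. HOXC was at 68.9%, 108% and 109%, and at 88.7% in CRISPR Control when HOXC12 was left out of the sum. HOXD, which rests on few reads, was at 57.6%, 90.0% and 97.3% of a WT sum of 93.3. The highest CRISPR Control library lay under the lowest library of the other 9 in each cluster. Sums are given without a test, because the members were chosen with earlier results of these data known.

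**Figure D3:**
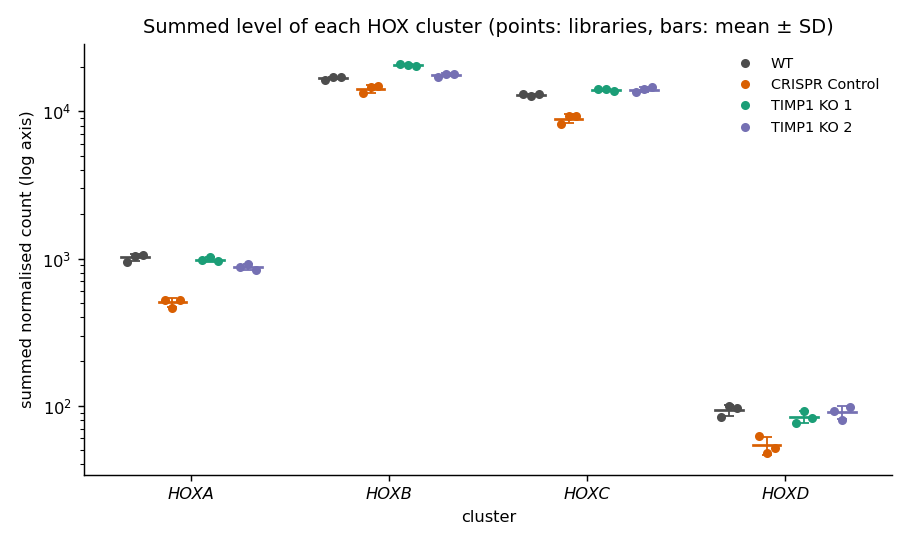
Summed normalised count of each HOX cluster on a log axis, with a point per library and bars for the mean ± SD of the 3 libraries of a line. HOXB and HOXC lie at 8184 or more in every library and HOXA between 460.2 and 1060.1, HOXD lies lowest, and the CRISPR Control points are the lowest in each cluster.

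HOXC12 set the family apart and is the gene for which it was drawn up, so its values in CRISPR Control are given with no test. The gene (ENSG00000123407.4, chr12:53954903-53958956 of GRCh38, plus strand) shares no annotated exon base with another gene. HOXC12 stood at 2971, 2789 and 2929.9 normalised counts in the WT libraries, at 3592, 3917 and 3638 in TIMP1 KO 1 and at 3129.6, 3281 and 3148 in TIMP1 KO 2. In CRISPR Control it stood at 2.59, 3.56 and 2.20, or 3, 3 and 2 reads. The 3 libraries of CRISPR Control were thus close to silent and the other 9 were all high. The 8 reads in total, with an exact 95% Poisson interval of 3.45 to 15.8, give a WT level 1041 times that of CRISPR Control, with a counting interval of 528 to 2411, a TIMP1 KO 1 level 1335 times (678 to 3093) and a TIMP1 KO 2 level 1145 times (581 to 2652). These intervals cover counting error only. Against WT, HOXC12 was higher in TIMP1 KO 1 (log2 fold change 0.36 ± 0.11 (SE), adjusted p = 0.0141), with no overlap of the 6 libraries, and was not called in TIMP1 KO 2 (log2 fold change 0.14 ± 0.11 (SE), adjusted p = 0.294). The call in TIMP1 KO 1 was lost without TIMP1 KO 1 replicate 2 (adjusted p = 0.0683) and without WT replicate 2 (adjusted p = 0.0542).

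**Figure D4:**
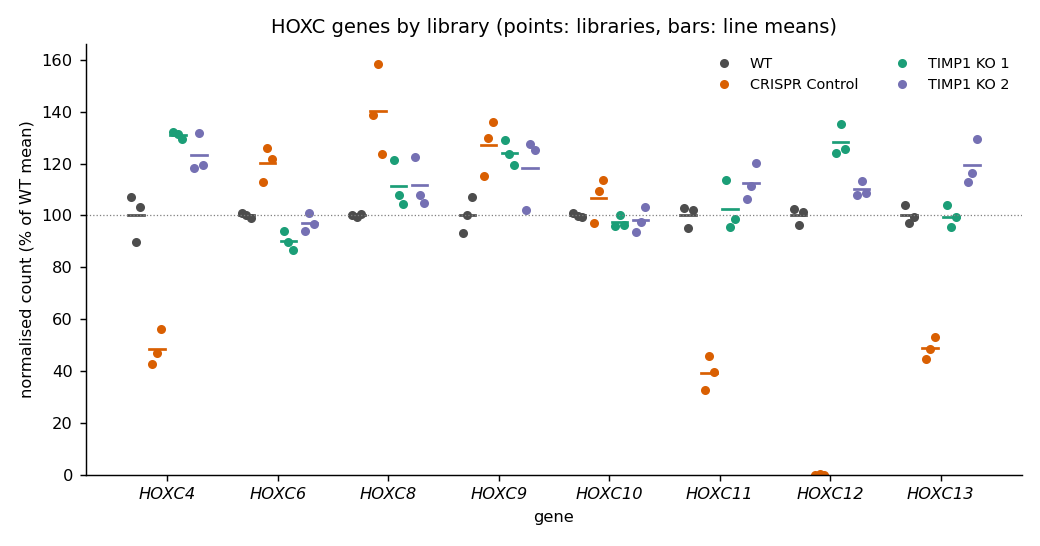
Normalised counts of the 8 tested HOXC genes in each library as a percent of the WT mean (points), with bars at line means, for the 4 lines. CRISPR Control lies near 0% for HOXC12, with line means of 39.3% to 48.8% for HOXC4, HOXC11 and HOXC13, but at or above the WT mean in its line means of HOXC6, HOXC8, HOXC9 and HOXC10.

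HOXC11 and HOXC13, on either side of HOXC12, were also lower in CRISPR Control, but not silent. HOXC11 (chr12:53973126-53977643) lies downstream of HOXC12, with the antisense long noncoding RNA HOTAIR reaching from between them into its span. It stood at 1111, 1027 and 1103 in WT, 353, 493 and 426 in CRISPR Control, 1226, 1034 and 1066 in TIMP1 KO 1 and 1147, 1204 and 1299 in TIMP1 KO 2. All CRISPR Control libraries lay under the other 9 (log2 fold change -1.36 ± 0.11 (SE), adjusted p = 4.29e-09), and neither KO line was called against WT, with log2 fold changes of 0.03 ± 0.11 and 0.17 ± 0.11. HOXC13 (chr12:53938831-53946544), known for its part in hair and nail keratins, lies upstream and stood at 2351, 2193 and 2245 in WT and 1013, 1095 and 1204 in CRISPR Control. The CRISPR Control values again lay apart from the other 9 (log2 fold change -1.04 ± 0.08 (SE), adjusted p = 2.70e-09), and HOXC13 was higher in TIMP1 KO 2 than in WT (log2 fold change 0.26 ± 0.08 (SE), adjusted p = 0.0106), a call lost without TIMP1 KO 2 replicate 3 (adjusted p = 0.065). Summed, HOXC11 and HOXC13 were at 45.7% of WT in CRISPR Control.

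The middle of HOXC went the other way. HOXC8 stood at 504, 500.0 and 506 in WT and at 699, 796 and 623 in CRISPR Control (log2 fold change 0.48 ± 0.10 (SE), adjusted p = 0.000646), and HOXC6 at 1201, 1190.1 and 1174 and 1343, 1496 and 1445 (log2 fold change 0.26 ± 0.07 (SE), adjusted p = 0.00565). For both genes the 3 CRISPR Control libraries lay above the other 9. HOXC9 was also higher than in WT (log2 fold change 0.34 ± 0.10 (SE), adjusted p = 0.00514). HOXC10, the member with the highest level of the cluster, did not pass the test in CRISPR Control or in either KO line, with log2 fold changes of 0.09 ± 0.07, -0.04 ± 0.07 and -0.03 ± 0.07. The sum of HOXC6 to HOXC10 in CRISPR Control was 115% of WT. At the far 3′ end of the cluster, HOXC4 stood at 549, 460.0 and 529 in WT, 219, 241 and 289 in CRISPR Control, 677, 673 and 664 in TIMP1 KO 1 and 606, 676 and 611 in TIMP1 KO 2. HOXC4 was thus lowest in CRISPR Control (log2 fold change -1.04 ± 0.11 (SE), adjusted p = 1.92e-07) and higher than WT in TIMP1 KO 1 (log2 fold change 0.39 ± 0.11 (SE), adjusted p = 0.0081) and TIMP1 KO 2 (log2 fold change 0.30 ± 0.11 (SE), adjusted p = 0.0243). The call in TIMP1 KO 2 was lost without WT replicate 2 (adjusted p = 0.121), without TIMP1 KO 2 replicate 2 (0.104) and under quantile normalization (0.0911). Exons of HOXC4 and HOXC6 overlap on the same strand, over 17.5% and 16.1% of their bases with other genes included, so the levels of both may be affected.

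Across the tested members other than HOXC12, 4 of 25 were higher in CRISPR Control than in WT, 13 were lower and 8 did not pass (limma on log2(normalised count + 1), Benjamini-Hochberg adjusted p under 0.05). Over all 15987 genes tested 53.4% were called, 27.2% as higher and 26.3% as lower. The median log2 fold change of the 25 was -0.51, against 0.01 over all genes. These shares describe the members that passed the filter, not the 39. Of these 25 members, 11 (44%) had all 3 CRISPR Control libraries under the other 9, as had 17.5% of all genes tested, and 2 members had them above, as had 18.6%. The 11 were spread over all clusters, with 5 in HOXA, 2 in HOXB (HOXB3 and HOXB9), 3 in HOXC (HOXC4, HOXC11 and HOXC13) and 1 in HOXD (HOXD3).

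**Figure D5:**
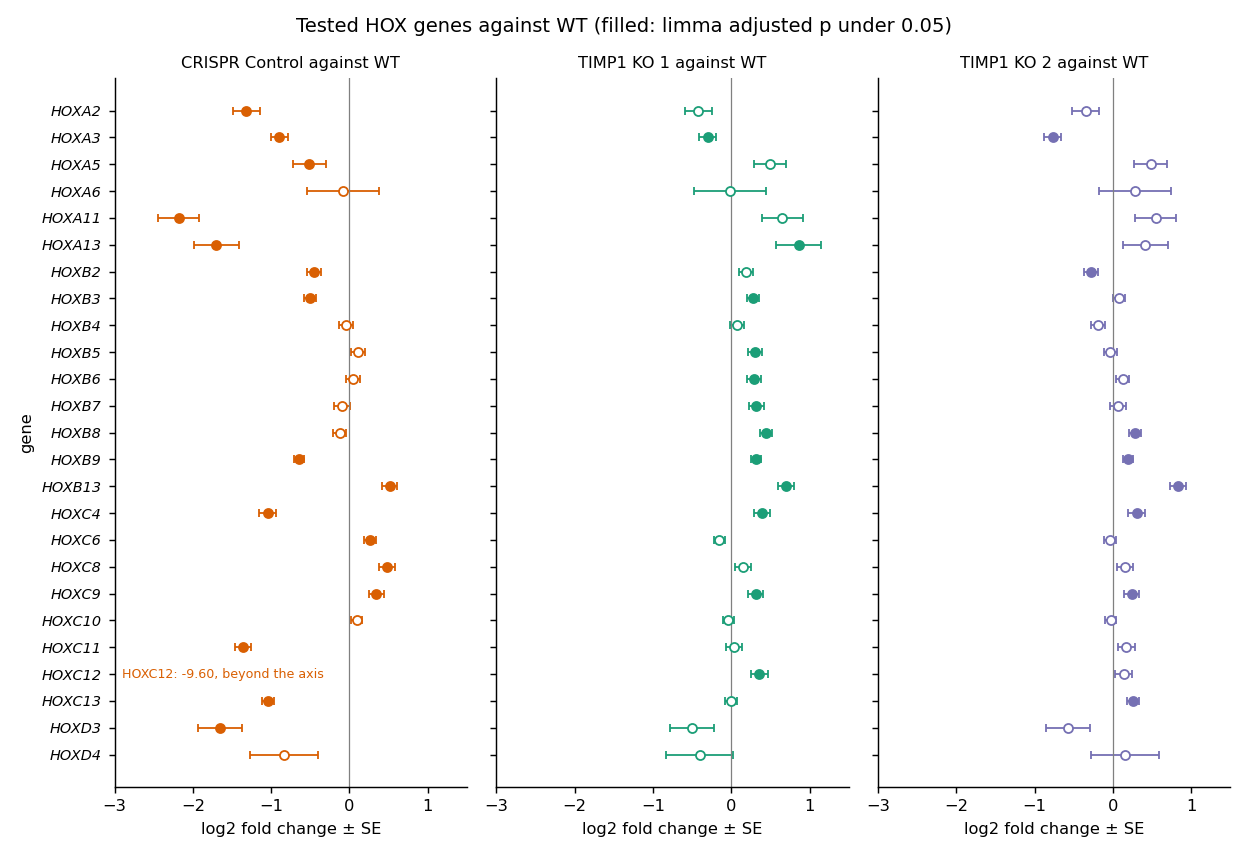
Log2 fold change ± SE of 25 tested HOX genes against WT in CRISPR Control, TIMP1 KO 1 and TIMP1 KO 2, on the log2(normalised count + 1) scale, with filled points for a limma adjusted p under 0.05 and HOXC12 in CRISPR Control written as a value because it lies beyond the axis and was not tested. Most HOXA points of CRISPR Control lie left of 0, and most HOXB points of TIMP1 KO 1 lie right of it.

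In HOXA, 6 of the 7 tested members were lower in CRISPR Control than in WT, as were 26.3% of all genes. HOXA6, near the filter with means of 9.80 to 12.4, was not called. Of the 6, HOXA11 had the largest log2 fold change. It stood at 37.4, 42.7 and 43.8 in WT, 8.64, 11.9 and 5.49 in CRISPR Control, 63.7, 72.0 and 61.0 in TIMP1 KO 1 and 48.9, 61.4 and 73.7 in TIMP1 KO 2. All CRISPR Control libraries lay under WT (log2 fold change -2.18 ± 0.26 (SE), adjusted p = 1.23e-06) and all KO libraries above it, although neither KO line passed the test against WT (0.65 ± 0.26, adjusted p = 0.0589, and 0.54 ± 0.26, adjusted p = 0.0867). Of the HOXA11 exon bases, 27.2% lie opposite to HOXA11-AS, which was itself read at means of 4.77, 1.08, 10.3 and 21.8 in WT, CRISPR Control, TIMP1 KO 1 and TIMP1 KO 2.

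HOXA13, the last gene of the cluster, stood at 44.1, 51.8 and 54.3 in WT, 22.5, 17.8 and 7.69 in CRISPR Control, 104, 96.8 and 76.0 in TIMP1 KO 1 and 74.6, 65.8 and 60.5 in TIMP1 KO 2. No line overlapped with another, with CRISPR Control lowest and TIMP1 KO 1 highest. It was lower in CRISPR Control (log2 fold change -1.70 ± 0.29 (SE), adjusted p = 6.54e-05) and higher in TIMP1 KO 1 (log2 fold change 0.86 ± 0.29 (SE), adjusted p = 0.025), the latter call being lost without WT replicate 1 (adjusted p = 0.088), without TIMP1 KO 1 replicate 1 (0.0914) or 2 (0.074), and with no filter on low values (0.0574). HOXA2 stood at 39.4% of WT in CRISPR Control (log2 fold change -1.32 ± 0.17 (SE), adjusted p = 3.50e-06). HOXA5 was at 69.0% of WT. Its call failed without 9 of the 12 libraries in turn, with DESeq2 (adjusted p = 0.0703) and with no filter on low values (0.105).

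HOXA3 was the HOXA gene with the most reads and the single member called lower than WT in every edited line. It stood at 407, 445 and 432 in WT, 246, 208 and 237 in CRISPR Control, 359, 344 and 337 in TIMP1 KO 1 and 242, 274 and 236 in TIMP1 KO 2. WT lay above the other 9 libraries, and TIMP1 KO 2 reached down to CRISPR Control. The log2 fold changes against WT were -0.89 ± 0.11 (adjusted p = 1.23e-06) in CRISPR Control, -0.30 ± 0.11 (adjusted p = 0.0341) in TIMP1 KO 1 and -0.77 ± 0.11 (adjusted p = 6.48e-06) in TIMP1 KO 2. The call in TIMP1 KO 1 failed without any one of the 3 TIMP1 KO 1 libraries (adjusted p = 0.0567 to 0.1), without WT replicate 2 or 3 (0.103 and 0.0914) and with no filter (0.0512).

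In HOXB, 3 of the 9 tested members were lower in CRISPR Control than in WT, 1 was higher and 5 did not pass. The share called was 44.4%, under the 53.4% of all genes, of which 26.3% were lower and 27.2% higher. HOXB9, the HOX gene with the highest mean over the 12 libraries, stood at 3895, 3767 and 3951 in WT, 2377, 2449 and 2587 in CRISPR Control, 4714, 4826 and 4873 in TIMP1 KO 1 and 4386, 4531 and 4377 in TIMP1 KO 2. The lines formed an order without overlap, from CRISPR Control (log2 fold change -0.65 ± 0.06 (SE), adjusted p = 7.25e-08) over WT and TIMP1 KO 2 (log2 fold change 0.20 ± 0.06 (SE), adjusted p = 0.0131) to TIMP1 KO 1 (log2 fold change 0.31 ± 0.06 (SE), adjusted p = 0.000703). The call in TIMP1 KO 2 was lost without WT replicate 2 (adjusted p = 0.0505) or TIMP1 KO 2 replicate 2 (0.0542), and the pair of KO lines did not differ by the test (adjusted p = 0.154). HOXB3 (-0.51) and HOXB2 (-0.45) were also lower in CRISPR Control on the log2 fold change scale, and HOXB3 shares exon bases with HOXB6 on the same strand. HOXB4 to HOXB8 were not called there, with log2 fold changes of -0.13 to 0.11.

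HOXB13, which lies apart from the rest of the cluster and is known as a prostate and hindgut gene, was higher than WT in every edited line. It stood at 343, 289 and 341 in WT, 416, 469 and 504 in CRISPR Control, 529, 549 and 500.0 in TIMP1 KO 1 and 553, 595 and 579 in TIMP1 KO 2. The 3 WT libraries lay under the other 9. The log2 fold changes against WT were 0.51 ± 0.10 (adjusted p = 0.000343) in CRISPR Control, 0.70 ± 0.10 (adjusted p = 2.60e-05) in TIMP1 KO 1 and 0.83 ± 0.10 (adjusted p = 1.44e-06) in TIMP1 KO 2. HOXC9, at 118% to 127% of WT in the edited lines, was called higher in all of them too, with the call in TIMP1 KO 2 (adjusted p = 0.0426) lost without 7 of the 12 libraries in turn and that in TIMP1 KO 1 (adjusted p = 0.0151) without WT replicate 1 (0.0735) or TIMP1 KO 1 replicate 1 (0.0638).

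Only HOXD3 and HOXD4 were tested in HOXD. HOXD3 stood at 55.5, 54.5 and 48.6 in WT, 19.9, 9.49 and 22.0 in CRISPR Control, 42.1, 33.8 and 35.3 in TIMP1 KO 1 and 40.6, 35.1 and 30.3 in TIMP1 KO 2. WT was highest and CRISPR Control lowest with no overlap, and CRISPR Control was lower by the test (log2 fold change -1.65 ± 0.28 (SE), adjusted p = 6.87e-05), while the KO lines did not pass against WT (adjusted p = 0.173 and 0.0881). HOXD4 was at means of 26.5 ± 3.19 in WT and 17.1 ± 10.8 in CRISPR Control (SD, n = 3), with overlapping libraries and no call (log2 fold change -0.84 ± 0.43 (SE), adjusted p = 0.11). Of the HOXD3 exon bases, 14.1% lie opposite to exons of HAGLR and 2 other genes.

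Each KO line was also compared with WT. In TIMP1 KO 1, 11 of the 26 tested members were higher than WT, 1 was lower and 14 did not pass, against 35.5% called, 18% higher and 17.5% lower over all genes, and the median log2 fold change was 0.23 (all genes 0.00). Without HOXC12, on whose level the family was selected, 10 of 25 were higher, 1 was lower and the median was 0.19. With HOXC12 included, the count of 12 called fell to 7 without TIMP1 KO 1 replicate 1. Of the 11, 7 were HOXB genes, all of its 9 tested members but HOXB2 and HOXB4. HOXB8, a regulator of trunk and blood cell identity, stood at 1213, 1320.1 and 1195 in WT, 1753, 1709 and 1620.1 in TIMP1 KO 1 and 1381, 1578 and 1562 in TIMP1 KO 2. Both KO lines lay above WT and CRISPR Control (log2 fold change 0.45 ± 0.08 with adjusted p = 0.000202 in TIMP1 KO 1, and 0.28 ± 0.08 with adjusted p = 0.00614 in TIMP1 KO 2). HOXB8 was not called in CRISPR Control (log2 fold change -0.13 ± 0.08 (SE), adjusted p = 0.191) and was higher in both KO lines than in CRISPR Control (adjusted p = 4.03e-06 and 0.000181). The other HOXB genes called in TIMP1 KO 1 apart from HOXB13 had log2 fold changes of 0.28 to 0.32.

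In TIMP1 KO 2, 6 of the 26 were higher than WT (HOXB8, HOXB9, HOXB13, HOXC4, HOXC9 and HOXC13), 2 were lower (HOXA3 and HOXB2) and 18 did not pass, where 55% of all genes were called, 27.1% higher and 27.9% lower. The median was 0.14 (all genes -0.01), and 0.15 without HOXC12. With libraries scaled to equal totals the split became 10 higher and 1 lower, and with a pseudocount of 10 it became 8 and 3. HOXB2, which patterns the hindbrain, stood at 2398, 2605 and 2541 in WT, 1588, 1849 and 2102 in CRISPR Control, 3006, 2758 and 2821 in TIMP1 KO 1 and 1901, 2091 and 2208 in TIMP1 KO 2. TIMP1 KO 2 lay under WT and overlapped CRISPR Control (log2 fold change -0.28 ± 0.09 (SE), adjusted p = 0.0123), and the call was lost with equal totals (adjusted p = 0.0686), with quantile normalization (0.061) and without TIMP1 KO 2 replicate 1 (0.0643).

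Compared with each other, TIMP1 KO 2 was higher than TIMP1 KO 1 for 1 of 26 members and lower for 6, with 38.2% called, 18.1% higher and 20.1% lower over all genes. The 6 were HOXA3, HOXB2, HOXB3, HOXB4, HOXB5 and HOXB7, and the 1 was HOXC13. The split was 2 higher and 3 lower with equal totals and 1 and 4 with quantile normalization, and the count of 7 fell to 3 without TIMP1 KO 1 replicate 2 and to 3 without TIMP1 KO 2 replicate 3. No difference between the KO lines reached 1 on the log2 scale.

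Set against CRISPR Control in place of WT, the KO lines were mostly higher. Without HOXC12, 16 of 25 tested members were higher in TIMP1 KO 1 and 2 lower (63% called, 31.7% higher and 31.3% lower over all genes), and 14 were higher in TIMP1 KO 2 and 2 lower (67.7% called, 33.3% and 34.4%). These comparisons share their control libraries, and the 2 lower members were HOXC6 and HOXC8 in each. Among the 14 was HOXD4 (adjusted p = 0.0495), whose call was lost under 6 other settings, edgeR (adjusted p = 0.0788), DESeq2 (0.0848) and quantile normalization (0.18) among them, and without 8 of the 12 libraries in turn. Without CRISPR Control replicate 3 its log2 fold change went from 0.99 to 0.37. The values against the 2 controls are set side by side for 2 genes. For HOXC11 the log2 fold change of TIMP1 KO 1 was 0.03 ± 0.11 against WT and 1.39 ± 0.11 against CRISPR Control, and for HOXC13 -0.01 ± 0.08 and 1.03 ± 0.08.

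In the contrast of the mean of both KO lines with the mean of WT and CRISPR Control, 14 of the 25 were higher, 1 was lower and 10 did not pass (65.9% called, 32.9% higher and 33% lower over all genes), and the median was 0.28. Quantile normalization gave 15 higher and 3 lower with HOXC12 counted, against 15 and 1. For 5 of the 25 (20%) all 6 KO libraries lay above all 6 of the other lines, as for 12.3% of all genes (HOXA11, HOXA13, HOXB8, HOXB9 and HOXC4), and for none below, as for 12.4%. HOXC11 had a log2 difference of 0.78 ± 0.08 in it with no call against WT in either KO line.

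The long noncoding and antisense RNAs of the clusters held 7 members that were lower in CRISPR Control. Of 18 genes on this list, 13 were tested, and the 7 lower than in WT were HAGLR, HOTAIR, HOXA-AS2, HOXB-AS2, HOXB-AS3, HOXC-AS3 and HOXC13-AS, while 6 did not pass, where 26.3% of all genes were lower. HOTAIR, which is read from the strand opposite to HOXC11 and binds Polycomb proteins, stood at 839, 847 and 846 in WT, 296, 282 and 254 in CRISPR Control, 1449, 1531 and 1581 in TIMP1 KO 1 and 1355, 1346 and 1207 in TIMP1 KO 2. No line overlapped with another, with CRISPR Control under WT (log2 fold change -1.60 ± 0.08 (SE), adjusted p = 1.26e-11) and TIMP1 KO 1 (log2 fold change 0.85 ± 0.08 (SE), adjusted p = 2.40e-07) and TIMP1 KO 2 (log2 fold change 0.62 ± 0.08 (SE), adjusted p = 4.80e-06) above it. HOTAIR shares no exon base with a HOX gene of the annotation. HAGLR, the antisense RNA of the HOXD cluster that starts at HOXD1, stood at 375, 435 and 396 in WT, 75.1, 83.0 and 107 in CRISPR Control, 483, 543 and 564 in TIMP1 KO 1 and 301, 295 and 266 in TIMP1 KO 2. All 4 lines were apart from each other, with differences from WT of -2.19 ± 0.13, 0.40 ± 0.13 and -0.48 ± 0.13 on the log2 scale (adjusted p = 6.97e-11, 0.0221 and 0.00414). HOXC13-AS fell with HOXC13 in CRISPR Control (log2 fold change -1.43 ± 0.13 (SE), adjusted p = 3.75e-08). Of the HOXC13-AS exon bases, 12.2% lie opposite to HOXC13, and 30.1% of those of HOXB-AS3 opposite to HOXB3, HOXB5 and HOXB6. The deposited counts give no strand, so shared reads may affect these levels, which was not tested.

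Of the proteins that bind DNA with HOX factors, the PBX, MEIS and PKNOX cofactors, 6 of 9 were tested, with 2 higher and 2 lower in CRISPR Control than in WT, where 27.2% and 26.3% of all genes were. MEIS2 had the largest change, from 477, 515 and 500.1 in WT to 197, 191 and 203 in CRISPR Control (log2 fold change -1.33 ± 0.10 (SE), adjusted p = 2.30e-09). In TIMP1 KO 1, 3 were lower than WT and 3 did not pass (17.5% lower over all genes), and in TIMP1 KO 2, 4 were lower and 2 did not pass (27.9%). PBX3 had the largest change of the cofactors in the mean contrast, at -0.48 ± 0.07, with means of 1482 in WT, 1421 in CRISPR Control, 1208 in TIMP1 KO 1 and 906 in TIMP1 KO 2.

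Of 23 Polycomb group genes, all tested, 2 were higher than WT and 8 lower in TIMP1 KO 1 (18% and 17.5% over all genes). In TIMP1 KO 2, 4 were higher than WT and 11 lower (27.1% and 27.9% over all genes). In CRISPR Control 5 were higher and 6 lower than in WT, near the shares of 27.2% and 26.3% over all genes. The largest change was that of PHC2, a subunit of Polycomb repressive complex PRC1, at means of 7156 in WT and 4177 in CRISPR Control (log2 fold change -0.78 ± 0.07 (SE), adjusted p = 4.23e-08), with 7304 and 7235 in the KO lines. EZH2, the methyltransferase of complex PRC2, had the largest change in the mean contrast (log2 fold change -0.65 ± 0.05 (SE), adjusted p = 8.67e-10) and stood at 2756, 2269.9, 1929 and 1309 in WT, CRISPR Control, TIMP1 KO 1 and TIMP1 KO 2. Of 14 Trithorax and MLL complex genes, 3 were higher and 6 lower in CRISPR Control (27.2% and 26.3% over all genes), among the latter the methyltransferase gene KMT2D (log2 fold change -0.85 ± 0.20 (SE), adjusted p = 0.0013), whose 3 CRISPR Control libraries ranged from 1555 to 3772. KDM6B, a demethylase that removes the Polycomb mark, had the largest change of this list in the mean contrast, at 0.67 ± 0.10.

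Of 18 genes just outside the clusters, 14 were tested, with 4 higher and 3 lower in CRISPR Control than in WT, where 53.4% of all genes were called. TTLL6, a tubulin glutamylase gene next to HOXB, had the largest change in both comparisons, at 17.0, 15.5 and 11.4 in WT, 4.32, 1.19 and 0 in CRISPR Control, 55.1, 51.8 and 50.4 in TIMP1 KO 1 and 87.0, 103 and 65.6 in TIMP1 KO 2. Its 4 lines did not overlap. Of 17 ParaHox and retinoic acid genes, whose products act upstream of HOX genes in the embryo, 12 were tested, with 3 higher and 6 lower in CRISPR Control (27.2% and 26.3% over all genes). CRABP1, a retinoic acid binding protein gene, fell from 427, 414 and 446 in WT to a mean of 20.4 in CRISPR Control (log2 fold change -4.46 ± 0.23 (SE), adjusted p = 1.02e-11) and stood at a mean of 2060.3 in TIMP1 KO 2. ALDH1A1, which makes retinoic acid, stood at 761, 797 and 762 in WT and 39.7, 54.6 and 35.2 in CRISPR Control, had 0 reads in the TIMP1 KO 1 libraries and stood at 1.66, 0 and 0 in TIMP1 KO 2.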

How the data were processed

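RNA of 12 libraries was sequenced, and the titles gave each sample's line and replicate number. The authors trimmed reads with cutadapt, mapped them with STAR to GRCh38, counted them per gene with featureCounts and divided each library by its DESeq2 size factor. The deposited values are thus a signal of size-factor-scaled counts. The strand setting and annotation release are not given in the sources used here. Dividing by the step of each library returned whole reads for 100% of values (tolerance 0.01 reads), from 26908701 to 36093563 per library, and floors are 3 reads. The table held 63086 genes, 1 blank row, left out, and 4 columns of the authors' line means, left unused here. Replicates of a line correlated with r from 0.990 to 0.992 and were not duplicates (chi-square of their reads per gene 4.61 to 29.7). The pairs of CRISPR Control libraries had the highest chi-squares, from 18.2 to 29.7, against 4.61 to 16.0 in the other lines. Of the gene identifiers, 99.1% matched GENCODE 44 without version numbers, whose GRCh38 coordinates and exon lengths are printed.

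Tests were two-sided, made with limma 3.58.1 (R 4.3.3) on log2 values, log2(normalised count + 1), over the 15987 genes with a mean of at least 10 normalised counts, with 4 line means, a common spread per gene, eBayes with a trend and Benjamini-Hochberg adjustment at a threshold of 0.05. Fold changes on this scale understate changes of low genes. The common spread takes no account of the wider spread between CRISPR Control libraries, so SEs and p-values of its contrasts may be too small. The procedure was tested on simulated data. Alternatives were a pseudocount of 0.5 or 10, no filter or a minimum mean of 50, edgeR 4.0.16 and DESeq2 1.42.0 on the recovered reads, equal library totals, quantile normalization, a minimum log2 fold change of 1, a replicate block, and leaving out each library. The members, gene lists and alternatives were chosen with earlier results of these data known. The rule for genes named with full values (a line mean of at least 100 and a ratio of at least 4 between lines) took only HOXC12, and, as the members of highest level with a ratio under 2 between lines, HOXA3, HOXB9, HOXC10 and HOXD4. Each other list gave its largest change in 2 comparisons, and all other genes with values were singled out after their values were seen. Promoter windows are those of RefSeq (GRCh38.p14). The values of 1 member are not reported here, although counts and sums include it.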

Additional observations from a re-analysis of the deposited data

Results flagged for a closer look

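For 7 HOX genes the change from WT was not the same in the KO lines, by the test of TIMP1 KO 2 against TIMP1 KO 1 in the same limma fit. They made up 26.9% of the 26 tested members, under the 38.2% of all genes called in this test. For HOXA3 the log2 difference was -0.47 (adjusted p = 0.00186), from -0.30 in TIMP1 KO 1 and -0.77 in TIMP1 KO 2 against WT. HOXB2 differed by -0.47 (adjusted p = 0.000415), from 0.19 and -0.28. HOXB5 differed by -0.33 (adjusted p = 0.00473), from 0.30 and -0.03. HOXB4 differed by -0.27 (adjusted p = 0.0245), from 0.07 and -0.19, and lost the call with equal totals (adjusted p = 0.18) and quantile normalization (0.0513) and without 4 of the 12 libraries in turn (0.0565 to 0.121). HOXB7 differed by -0.26 (adjusted p = 0.046), from 0.32 and 0.06, and lost it with equal totals (adjusted p = 0.223), quantile normalization (0.149), no filter (0.0822) and the replicate block (0.0505), and without 7 libraries in turn (0.0523 to 0.209). HOXB3 differed by -0.20 (adjusted p = 0.0413), from 0.28 and 0.07, and lost it with edgeR (adjusted p = 0.0602), equal totals (0.356), no filter (0.0757), quantile normalization (0.185) and the block (0.0559), and without 6 libraries in turn (0.0551 to 0.157). HOXC13 differed by 0.26 (adjusted p = 0.0132), from -0.01 and 0.26, and lost it without TIMP1 KO 1 replicate 2 (adjusted p = 0.0629) or TIMP1 KO 2 replicate 3 (0.0769). Each KO line is a single clone and WT is the line that was not edited, so clone and genotype cannot be told apart.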

How the results depend on the processing

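Counts here include HOXC12, whose call against CRISPR Control is no test. Without it the counts of 18, 12, 19, 17 and 16 below are 17, 11, 18, 16 and 15. The tested HOX genes called were 18 in CRISPR Control against WT, 12 in TIMP1 KO 1 against WT, 8 in TIMP1 KO 2 against WT, 19 and 17 in TIMP1 KO 1 and KO 2 against CRISPR Control, 7 between the KO lines and 16 in the mean contrast. No called difference changed direction. The summed HOXD level of TIMP1 KO 2 against WT, within the replicate spread of 0, went from -0.04 (log2 ratio) to 0.05 with equal totals, 0.09 per kb and between -0.11 and 0.04 with a library left out. A minimum absolute log2 fold change of 1 left 8, 0, 0, 8, 8, 0 and 3. Over all genes the shares called at this setting were 14.7%, 8.21%, 14.7%, 21.2%, 24.5%, 8.25% and 14.5% in the same order. At no minimum fold the 0 counts were 12, 8 and 7 by limma, with 14, 9 and 7 by edgeR and 14, 8 and 8 by DESeq2. Leaving out 1 library gave 17 to 19, 7 to 13, 6 to 9, 18 to 20, 16 to 18, 3 to 8 and 15 to 17. Replicate numbers did not pair the libraries, since 2 of 18 correlations of deviations were over 0.1 (-0.13 to 0.16), and the replicate block gave 18, 12, 8, 20, 16, 5 and 16 calls. Summed levels moved by more than the replicate SD in 3 cases. HOXB in TIMP1 KO 2 against WT rose from 0.07 to 0.17 (log2 ratio) and HOXC from 0.12 to 0.21 with equal library totals, which shifted the median of all genes by up to 0.11, and HOXC in CRISPR Control against WT went from -0.54 to -0.42 per kb. The cause was not tested. Of 1610 values of single genes under other settings 1549 kept their side of the threshold, 27 lost and 34 gained a call, and of 2184 with a library left out 2084 kept it, 76 lost and 24 gained one. Depth limits the 13 untested members, for which no difference could be shown.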
